A study of Mus musculus with 2 samples.

Results

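A set of 7 genes of the proneural and neuronal basic helix-loop-helix (bHLH) class were examined for binding of the co-activator p300 around them: Neurog1, Neurog2, Neurod1, Neurod2, Neurod4, Neurod6 and Bhlhe22, which the study calls Bhlhb5. A p300 peak was counted for a gene when its midpoint lay inside the gene body or within 500 kb of its transcription start site, taken from the transcript that has the longest coding sequence. By this rule 57 of the 6629 deposited peaks belonged to the 7 genes, and no peak belonged to more than 1 of them. Positions are on the mouse genome build mm9, and the same count was made for 22367 protein-coding genes.

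The study mapped p300 by ChIP-seq in the dorsal cerebral wall of Swiss Webster mouse embryos at embryonic day 14.5, with 1 p300 library, made with the antibody C-20, and 1 input library from the same chromatin sample. The input served the authors' peak calling and was not analysed here. The wall was dissected whole, with the hem, hippocampus and choroid plexus cut away, so it mixed ventricular zone progenitors, the subventricular and intermediate zones and the cortical plate, and a peak cannot be assigned to any of these cell populations. The list has no replicate, score or read count, so the values below are descriptions of 1 peak list without a test, and intervals cover counting error only.

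p300 is a histone acetyltransferase that is recruited by transcription factors to active enhancers, and its binding away from promoters marks candidate enhancers. bHLH factors bind the E-box, CANNTG, as dimers with a ubiquitous E protein. In the cortex the proneural factors Neurog1 and Neurog2 act in progenitors, where they start glutamatergic neurogenesis and switch on the Notch ligand Dll1. Neurod1 and Neurod4 follow them in cells that are becoming neurons, Neurod2 and Neurod6 are kept on in postmitotic glutamatergic neurons, and Bhlhe22, a repressor of the Olig-related family, acts in postmitotic neurons in the choice of area identity. Neurog and Neurod proteins prefer the E-box CAGATG, which reads CATCTG on the other strand.

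Neurog2 had the most p300 peaks of the 7 genes, with 16, followed by Neurod6 with 13, Neurod2 with 10, Neurog1 with 7, Neurod1 and Bhlhe22 with 5 each and Neurod4 with 1. Exact Poisson 95% intervals, which treat peaks as independent counts, ran from 9.15 to 26.0 for Neurog2, from 6.92 to 22.2 for Neurod6, from 4.80 to 18.4 for Neurod2 and from 0.0253 to 5.57 for Neurod4. Neighbours in this order were not separated by their intervals, whereas those of Neurog2 and Neurod6 did not overlap that of Neurod4. Peaks were not independent, however, with 11 of 50 neighbouring midpoints under 5 kb apart, and the Neurod4 window was shorter, at 0.776 Mb. Neurog2 had 10 peaks once close ones were joined, and the interval of a count of 10, 4.80 to 18.4, overlapped that of Neurod4. The gap between intervals was therefore not read as a difference between genes. The median protein-coding gene had 1 peak by the same rule, and 70.0% of protein-coding genes had at least 1. A count of 6, the 90th percentile, was reached by 12.7% of protein-coding genes and by 4 of the 7 bHLH genes. The order depended on how close peaks were counted. With peaks less than 5 kb apart joined, Neurod6 came first with 11, followed by Neurog2 with 10, Neurog1 with 7, Neurod1, Neurod2 and Bhlhe22 with 5 each and Neurod4 with 1. As many peaks as Neurog2 were found at 0.443% of protein-coding genes (99 genes), as many as Neurod6 at 0.979% and as many as Neurod2 at 2.72%. At the other end of the order, 17.8% of protein-coding genes had as many as Neurod1 or Bhlhe22, and 70.0% had as many as Neurod4. A peak is shared by every gene whose window covers it, and 6 of the other genes with as many peaks as Neurog2 shared at least 1 peak with it.

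**Figure D1:**
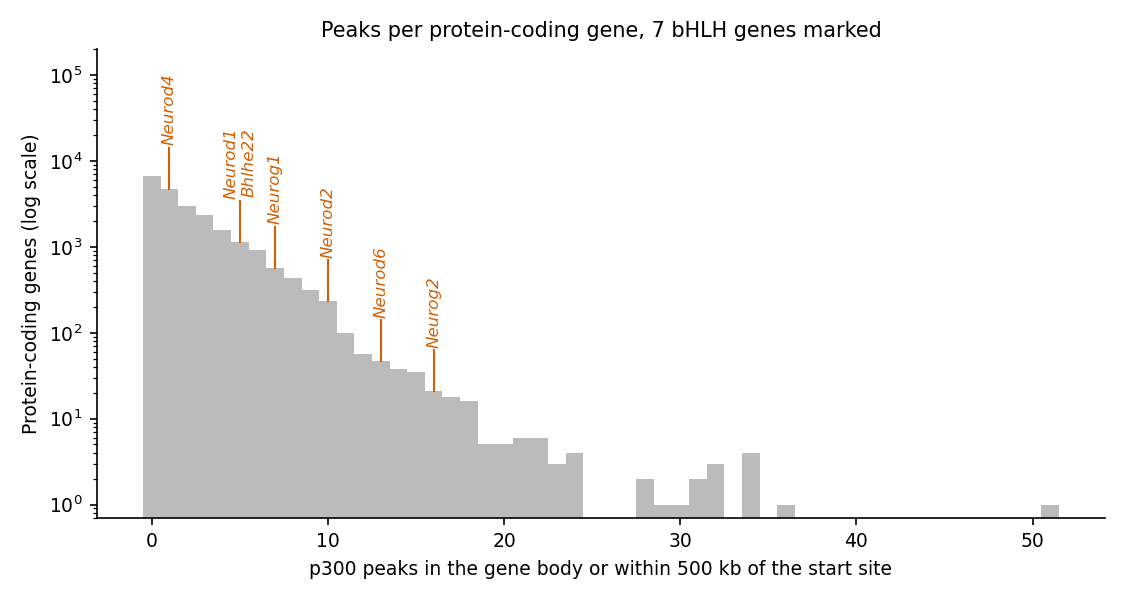
Number of protein-coding genes (log scale) by the number of p300 peaks in the gene body or within 500 kb of the start site, with the 7 bHLH genes marked. Neurog2 at 16 and Neurod6 at 13 lie in the sparse upper tail, and Neurod4 at 1 lies at the median.

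Within 50 kb of the start site the order was different. Neurod2 had 9 peaks there, Neurog2 4, Neurod6 3, Neurog1 2, Neurod4 and Bhlhe22 1 each and Neurod1 none. Over all protein-coding genes the 50 kb count also took in peaks anywhere in the gene body, which in a long gene can lie farther from the start. By that count only 25 protein-coding genes (0.112%) had 9 or more peaks. A single peak was enough for the 90th percentile of that count, and 15.6% of protein-coding genes and 6 of the 7 bHLH genes had one.

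**Figure D2:**
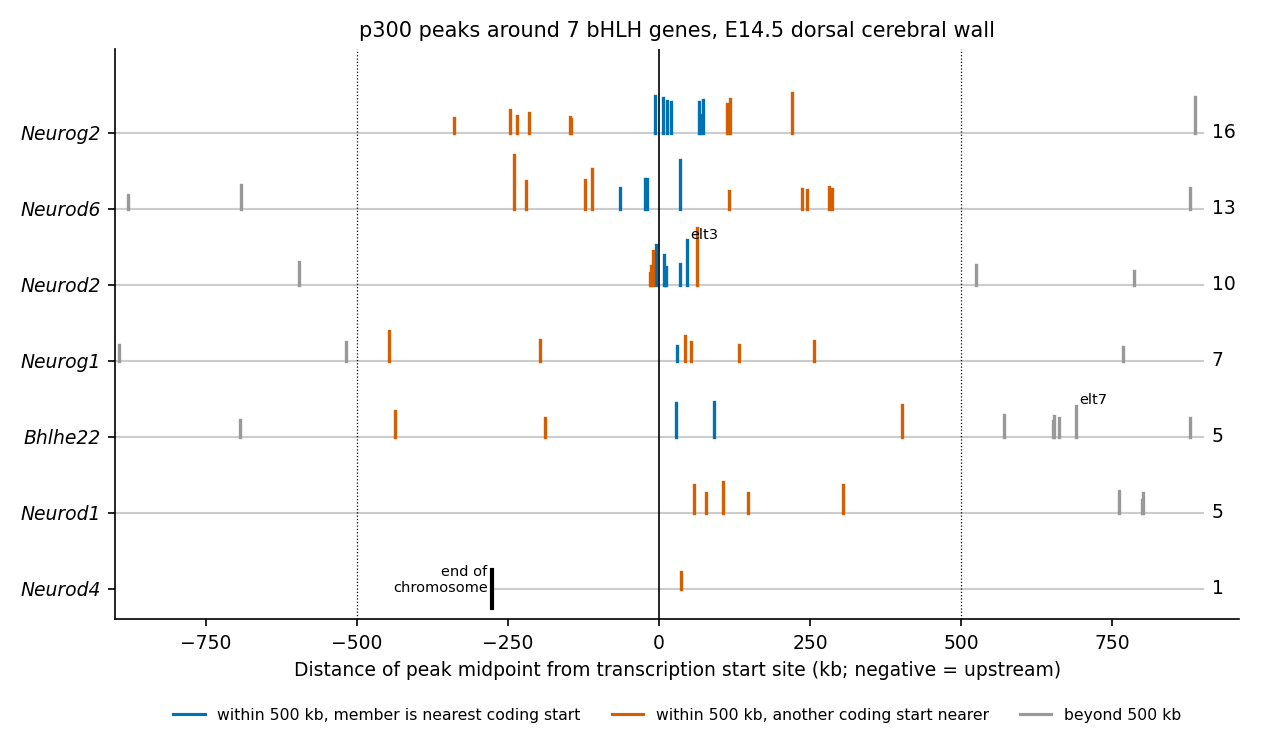
Positions of p300 peak midpoints around each gene, in kb from the transcription start site, with upstream to the left and the height of each bar proportional to the width of the peak. Numbers at the right are the peaks within 500 kb (dotted lines), grey bars lie beyond that limit, and the cloned elements elt3 and elt7 are named. Neurod2 has its 10 peaks next to the gene, while the 5 peaks of Neurod1 all lie downstream.

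Neurog2 (ENSMUSG00000027967, plus strand, chromosome 3, 127336054 to 127338549) is a gene with a single coding exon and is flanked almost symmetrically by its nearest peaks. Peak 4033 lay 7.28 kb upstream and was 1821 bp wide, and peak 4034 lay 7.25 kb downstream and was 1726 bp wide. Peaks 4035 and 4036 followed at 13.2 and 19.0 kb downstream, and peaks 4037, 4038 and 4039 at 65.3, 68.3 and 72.8 kb, the last 3 in introns of the kinase gene Alpk1. These 7 peaks were the ones for which Neurog2 had the nearest coding start site. Of the other 9, peaks 4040 and 4041, both in Alpk1, lay nearest to the start of Alpk1, peak 4042 (220.2 kb downstream, the widest of the 16 at 1956 bp) to Ap1ar, and the 6 upstream peaks between 145.7 and 338.8 kb to Gm4392 or to Ank2, an ankyrin gene of the membrane skeleton. Joining peaks less than 5 kb apart reduced the 16 peaks to 10.

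The middle of the nearest Neurog2 peak is printed here to show the sequence at the centre of a peak beside the gene. It holds no CANNTG site at all.
Neurog2, peak 4034 (chr3:127343200-127343399, plus strand): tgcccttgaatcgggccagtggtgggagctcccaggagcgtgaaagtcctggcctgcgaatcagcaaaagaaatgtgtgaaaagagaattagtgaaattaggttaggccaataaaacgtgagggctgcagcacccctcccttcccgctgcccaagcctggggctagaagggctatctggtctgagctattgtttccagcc

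Neurog1 (ENSMUSG00000048904, minus strand, chromosome 13, 56351866 to 56353524), the close relative of Neurog2, has a single exon. Its nearest peak, 1662, lay 30.0 kb downstream and was 765 bp wide, and it was the only 1 of the 7 with Neurog1 as the nearest coding start. It was also the only 1 of the 57 peaks that overlapped an annotated exon, of 4930550C17Rik. Peaks 1661 and 1660, at 43.6 and 52.4 kb downstream, were nearer to the start of Tifab, and peaks 1659 and 1658 followed at 132.0 and 256.7 kb. The nearest upstream peak, 1663, was 197.6 kb away in an intron of Slc25a48. Peak 1664, 446.4 kb upstream and 4.44 kb from the start of Smad5, was the farthest peak inside the 500 kb limit for any of the 7 genes, and peak 1665, 518.3 kb upstream of Neurog1, was the nearest beyond it. Peak 1664 was the widest of the 7, at 1482 bp, and the median width at Neurog1 was 964 bp.

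In the middle of the nearest Neurog1 peak a CAGATG site is followed directly by a CAAATG site, shown in capitals.
Neurog1, peak 1662 (chr13:56323467-56323666, plus strand): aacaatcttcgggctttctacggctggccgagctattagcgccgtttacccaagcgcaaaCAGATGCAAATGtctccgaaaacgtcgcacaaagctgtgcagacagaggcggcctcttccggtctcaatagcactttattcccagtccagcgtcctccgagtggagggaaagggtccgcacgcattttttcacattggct

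Neurod1 (ENSMUSG00000034701, minus strand, chromosome 2, 79292678 to 79296908) had peaks on 1 side only. Its 5 peaks lay 57.1, 77.4, 104.9, 147.0 and 304.3 kb downstream, and the nearest upstream peak, 3447, was 1147 kb away, outside the window. The 3 nearest, numbers 3446, 3445 and 3444, lay in introns of Cerkl and nearer to its start, and the next, 3443, lay in an intron of the integrin gene Itga4. Neurod1 was therefore the nearest coding start for 0 of its 5 peaks. The widest was 3444 with 1533 bp. Within 1 Mb the gene had 8 peaks, since peaks 3441, 3440 and 3439 lay 761.7 to 801.2 kb downstream.

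The nearest Neurod1 peak also has no CANNTG site in its middle, although 2 CAGATG sites lie elsewhere in its 1375 bp.
Neurod1, peak 3446 (chr2:79239721-79239920, plus strand): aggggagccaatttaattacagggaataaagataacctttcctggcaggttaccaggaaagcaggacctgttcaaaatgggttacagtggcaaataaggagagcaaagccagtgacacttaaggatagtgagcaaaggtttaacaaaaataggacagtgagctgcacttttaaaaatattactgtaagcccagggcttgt

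Neurod4 (ENSMUSG00000048015, minus strand, chromosome 10, 129705209 to 129717296) had 1 peak. Peak 722 lay 35.9 kb downstream, was 818 bp wide and was nearer to the start of the olfactory receptor gene Olfr827, at 33.2 kb. The window of Neurod4 was shorter than the others, 0.776 Mb, because the chromosome ends 276.0 kb upstream of the start. No upstream peak was listed, and the next peak downstream, 721, lay 3361 kb away.

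The middle of peak 722 holds a CAGATG and a CATTTG site.
Neurod4, peak 722 (chr10:129681289-129681488, plus strand): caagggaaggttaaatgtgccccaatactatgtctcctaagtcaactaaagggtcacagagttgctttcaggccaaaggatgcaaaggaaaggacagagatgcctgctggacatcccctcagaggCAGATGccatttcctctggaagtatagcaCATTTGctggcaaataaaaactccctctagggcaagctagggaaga

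Neurod2 (ENSMUSG00000038255, minus strand, chromosome 11, 98186729 to 98190962) had the most compact set. Its 10 peaks spanned 79.2 kb, with a median distance of 12.7 kb from the start, against medians of 105 to 189 kb for the other genes with 5 or more peaks. Upstream lay peak 1000 at 4.40 kb, the closest of all 57 peaks to its gene, and peaks 1001, 1002 and 1003 at 9.39, 13.1 and 15.7 kb. Downstream lay peaks 999, 998 and 997 at 8.68, 10.2 and 12.2 kb and peaks 996, 995 and 994 at 34.8, 45.8 and 63.5 kb. Neurod2 had the nearest coding start for 6 of them. The 3 outermost upstream peaks were nearer to Ppp1r1b, which encodes a phosphatase regulator of striatal neurons, though for peak 1001 the distances were 9.37 and 9.39 kb, and peak 994, in an intron of the kinase gene Cdk12, was nearer to the start of Cdk12. Peak 994 was the widest of the 57, at 2831 bp, and peak 1003 the narrowest, at 595 bp. No other peak lay within 500 kb, and the nearest beyond was 993 at 524.7 kb downstream. The window held 33 coding start sites, the most of the 7. Joining peaks less than 5 kb apart left 5.

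Peak 1000, beside the gene, has 3 sites of the CACCTG class, read as CAGGTG, in its middle and no CAGATG there, though its 1996 bp hold 3 CAGATG sites outside the middle. Peak 995 lies under elt3, an element the study cloned for reporter assays and found active in the neocortex of transgenic embryos. The element covers 1723 bp of chromosome 11 from 98144420 to 98146142, or 78.1% of the peak. The middle of peak 995 has a single CANNTG site, CACATG, and its 2207 bp hold 0 CAGATG sites.
Neurod2, peak 1000 (chr11:98195265-98195464, plus strand): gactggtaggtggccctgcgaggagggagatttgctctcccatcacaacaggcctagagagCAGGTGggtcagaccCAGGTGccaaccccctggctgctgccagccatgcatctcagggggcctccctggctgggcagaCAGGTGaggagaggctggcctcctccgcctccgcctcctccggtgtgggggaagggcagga
Neurod2, peak 995 (chr11:98145072-98145271, plus strand): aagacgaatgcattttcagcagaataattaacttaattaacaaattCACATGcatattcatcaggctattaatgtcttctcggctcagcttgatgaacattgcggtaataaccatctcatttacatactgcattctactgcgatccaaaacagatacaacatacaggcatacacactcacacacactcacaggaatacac

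Neurod6 (ENSMUSG00000037984, minus strand, chromosome 6, 55627812 to 55631257), like Neurod2 a gene of postmitotic glutamatergic neurons, had its 13 peaks spread over 525.8 kb. Peaks 5282, 5283 and 5284 lay 19.7, 22.9 and 64.4 kb upstream and peak 5281 lay 33.9 kb downstream, and for these 4 Neurod6 had the nearest coding start. Upstream, peaks 5285 to 5288 lay 111.0 to 239.6 kb away, nearest to the start of Ccdc129. Downstream, peaks 5280 to 5276 lay 115.6 to 286.2 kb away, nearest to Adcyap1r1, a receptor for the neuropeptide PACAP, or to Ghrhr, the receptor of growth hormone releasing hormone. The widest were peak 5288 with 2684 bp, in an intron of Ccdc129, and peak 5281 with 2427 bp. Of all deposited peaks, 0.739% were at least as wide as peak 5288.

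The nearest Neurod6 peak has 1 CANNTG site in its middle, CAAATG.
Neurod6, peak 5282 (chr6:55650863-55651062, plus strand): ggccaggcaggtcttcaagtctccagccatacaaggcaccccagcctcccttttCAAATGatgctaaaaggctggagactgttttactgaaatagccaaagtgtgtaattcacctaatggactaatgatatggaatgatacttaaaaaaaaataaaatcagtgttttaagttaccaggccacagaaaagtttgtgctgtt

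Bhlhe22 (ENSMUSG00000025128, plus strand, chromosome 3, 17954325 to 17957509) had 5 peaks in a stretch with only 4 coding start sites. Peaks 3782 and 3783 lay 27.5 and 90.7 kb downstream, in introns of the neighbouring gene Cyp7b1 and nearest to the start of Bhlhe22, with widths of 1689 and 1757 bp. Peak 3784 lay 402.1 kb downstream, and peaks 3781 and 3780 lay 189.0 and 437.4 kb upstream. The count depended on the limit, with 3 peaks within 250 kb and 12 within 1 Mb. The additional downstream peaks began with 3785 at 571.5 kb and included 3789 at 689.6 kb, which lies under elt7, the element the study cloned for this gene. That element runs from 18643263 to 18644821 on chromosome 3 and covers 96.1% of the peak. The study found it active in the neocortex of transgenic embryos.

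Printed here are the middles of the nearest Bhlhe22 peak and of peak 3789, which lies outside the 500 kb limit. Each has 1 CANNTG site, CACTTG and CATTTG respectively.
Bhlhe22, peak 3782 (chr3:17981752-17981951, plus strand): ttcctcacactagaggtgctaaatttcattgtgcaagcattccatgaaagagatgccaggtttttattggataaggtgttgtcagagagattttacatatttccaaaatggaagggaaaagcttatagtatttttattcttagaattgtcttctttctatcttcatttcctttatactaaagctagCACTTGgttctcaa
Bhlhe22, peak 3789 (chr3:18643874-18644073, plus strand): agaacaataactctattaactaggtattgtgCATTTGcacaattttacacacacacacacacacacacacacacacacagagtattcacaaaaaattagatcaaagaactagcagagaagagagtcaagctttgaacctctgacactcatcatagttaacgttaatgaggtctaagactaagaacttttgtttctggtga

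Over the 7 genes, 35 peaks lay downstream of the start and 22 upstream, 20 lay within 50 kb and 29 within 100 kb. For 20 of the 57 peaks (35.1%, exact Clopper-Pearson 95% interval 22.9 to 48.9%) the bHLH gene had the nearest coding start site, and all 20 lay within 100 kb. For the other 37, including all 28 beyond 100 kb, another coding gene was nearer. When the start sites of all annotated genes, non-coding ones included, were used, the bHLH gene was nearest for 13 peaks (22.8%). The peak list gives positions and no contacts, so which gene a peak acts on was not measured. By place, 38 peaks were intergenic (66.7%) and 19 in introns of other coding genes (33.3%), against 54.5% and 42.7% of all deposited peaks, and no peak lay inside any of the 7 genes. The authors removed peaks close to a start site, so the promoters themselves are outside the list.

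Peaks around the bHLH genes had a higher median width than the list as a whole. Their median width was 1287 bp (95% interval from order statistics 994 to 1485 bp), against 1017 bp for all deposited peaks (1010 to 1025 bp). The interval for the bHLH genes included 1017 bp, and without the peaks of Neurog2 the median was 1217 bp. At least the median width of all peaks was reached by 35 of the 57 (61.4%) and by 50.1% of all peaks. A width of 1260 bp, the upper quartile of all peaks, was reached by 25.1% of all peaks and by 29 of the 57 (50.9%, exact Clopper-Pearson interval 37.3 to 64.4%). Only the median had been planned as a measure of width. The cut at 1260 bp was added later, and its interval treats close peaks as independent. The 29 peaks within 100 kb of the start had a median width of 1485 bp and the 28 beyond it 1063 bp. Over all deposited peaks the medians within and beyond 100 kb of the nearest coding start were 1008 and 1029 bp. That split used the nearest start of any coding gene, whereas the 57 peaks were split by distance to their bHLH gene. All 28 peaks beyond 100 kb had another coding start nearer, so these medians are not like for like. Among the genes, the median width ran from 818 bp for the single Neurod4 peak and 964 bp at Neurog1 to 1483 bp at Neurog2 and 1583 bp at Bhlhe22. The number of reads behind a peak is not given in the list, and its part in the widths was not tested.

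**Figure D3:**
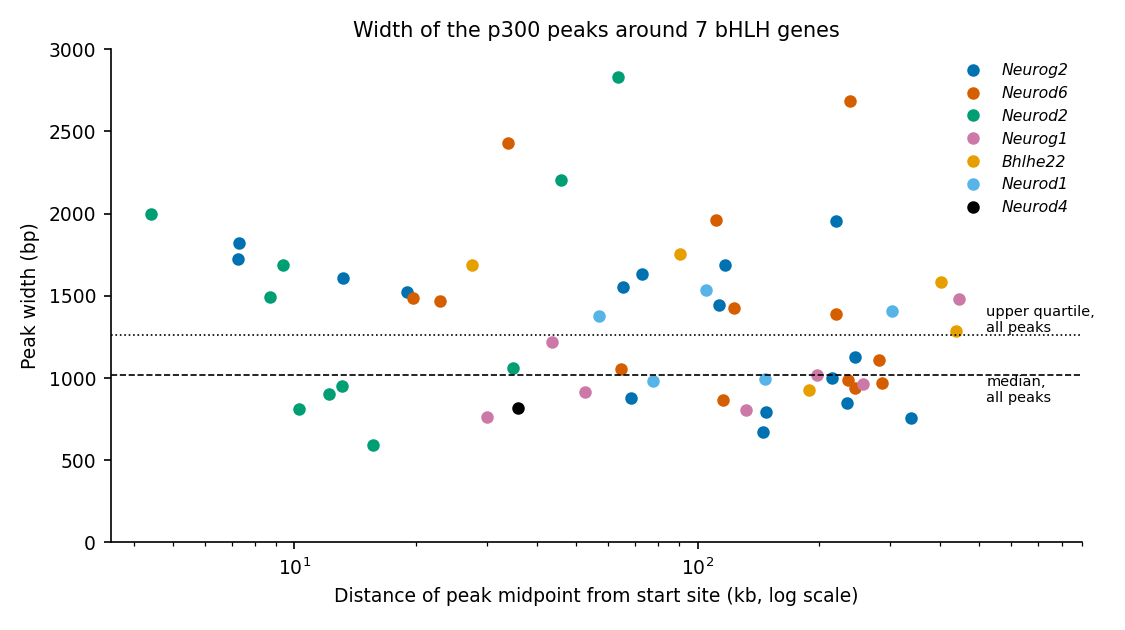
Width of each of the 57 peaks (bp) against the distance of its midpoint from the start site (kb, log scale), coloured by gene. The dashed line is the median of all deposited peaks, 1017 bp, and the dotted line their upper quartile, 1260 bp. Peaks within 100 kb have a median of 1485 bp and lie on both sides of the lines.

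The preferred E-box of the Neurog and Neurod proteins was searched on both strands in the middle 200 bp of each peak. It was present in 15 of the 57 peaks, or 26.3% with an exact 95% interval of 15.5 to 39.7%, and in 36.3% of all deposited peaks, with an interval of 35.2 to 37.5%. In 200 bp windows placed 5 kb to either side of the peaks, 17.5% of those beside the 57 peaks and 15.0% of those beside all peaks had a site. Other peaks were not excluded from these windows. Some therefore fell inside a neighbouring peak, as between peaks 1000 and 1001 of Neurod2, and these shares are not free of peak sequence. Sites were found at all 7 genes, in 4 peaks at Neurod6, 3 each at Neurog1 and Neurog2, 2 at Neurod2 and 1 each at Neurod1, Neurod4 and Bhlhe22. Each of the 15 peaks had a single site in its middle. They are listed here with their flanks, read so that the capitals spell CAGATG, to show the flanks within which the shared core sits. The strand given is that of mm9 on which it reads so.
Neurog1, peak 1658 (chr13:56096802-56096841, minus strand): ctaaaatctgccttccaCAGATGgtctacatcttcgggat
Neurog1, peak 1662 (chr13:56323510-56323549, plus strand): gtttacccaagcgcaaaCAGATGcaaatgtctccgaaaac
Neurog1, peak 1664 (chr13:56799907-56799946, plus strand): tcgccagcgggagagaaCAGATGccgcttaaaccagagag
Neurog2, peak 4027 (chr3:126997218-126997257, plus strand): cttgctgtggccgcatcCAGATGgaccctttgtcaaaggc
Neurog2, peak 4028 (chr3:127090137-127090176, plus strand): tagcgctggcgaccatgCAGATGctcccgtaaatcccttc
Neurog2, peak 4039 (chr3:127408862-127408901, minus strand): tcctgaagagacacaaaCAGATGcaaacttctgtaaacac
Neurod1, peak 3445 (chr2:79219506-79219545, minus strand): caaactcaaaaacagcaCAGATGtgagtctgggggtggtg
Neurod2, peak 996 (chr11:98156182-98156221, minus strand): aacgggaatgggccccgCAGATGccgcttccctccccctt
Neurod2, peak 998 (chr11:98180703-98180742, plus strand): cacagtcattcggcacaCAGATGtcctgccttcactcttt
Neurod4, peak 722 (chr10:129681397-129681436, plus strand): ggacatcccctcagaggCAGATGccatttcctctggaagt
Neurod6, peak 5277 (chr6:55350079-55350118, minus strand): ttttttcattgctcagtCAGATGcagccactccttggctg
Neurod6, peak 5283 (chr6:55654241-55654280, minus strand): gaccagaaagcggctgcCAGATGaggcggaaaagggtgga
Neurod6, peak 5287 (chr6:55852327-55852366, minus strand): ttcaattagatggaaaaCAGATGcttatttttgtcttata
Neurod6, peak 5288 (chr6:55870789-55870828, minus strand): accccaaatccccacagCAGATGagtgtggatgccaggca
Bhlhe22, peak 3780 (chr3:17516888-17516927, minus strand): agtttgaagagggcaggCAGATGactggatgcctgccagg

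The bases next to the core varied. The base that follows CAGATG was C at 8 of the 15 sites (53.3%, exact Clopper-Pearson interval 26.6 to 78.7%) and G at 2 (13.3%, 1.66 to 40.5%), whereas over the 3025 such sites in the middles of all peaks it was C at 19.1% and G at 54.4%. It was A at 20% and T at 13.3% of the 15, against 10.3% and 16.2% of all sites. The base before CAGATG was A at 7 of the 15 (46.7%) and at 37.1% of all sites. The flanking bases were not among the planned measures and rest on 15 sites, so no preference at these genes is read from them.

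How often the E-box was found depended on peak width and on the length searched. Among peaks at least 1260 bp wide, 6 of 29 around the bHLH genes (20.7%) and 22.0% of all such peaks had it in the middle 200 bp, and among narrower peaks 9 of 28 (32.1%, exact interval 15.9 to 52.4%) and 41.1% did. Over the middle 500 bp the shares were 57.9% and 57.3%, and over the whole peak 77.2% and 74.8%. Per length, the 57 peaks had 1.35 sites per kb in the middle 200 bp and 0.931 in the rest of the peak, a ratio of 1.45 (exact conditional interval 0.764 to 2.58), and all peaks had 2.34 and 1.06, a ratio of 2.21. Counting CAGATG or CAGCTG, the ratio was 1.07 (0.619 to 1.76) around the bHLH genes and 2.17 over all. For the peaks within 250 kb of a bHLH start it was 1.12 (0.506 to 2.22), against 2.21 over all peaks. In peaks at least 1260 bp wide the ratio was 1.15 (0.398 to 2.72) around the bHLH genes and 1.15 over all. In peaks narrower than the median it was 1.47 (0.464 to 4.08) around the bHLH genes and 2.70 over all. The subsets by width were chosen once the data had been seen.

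**Figure D4:**
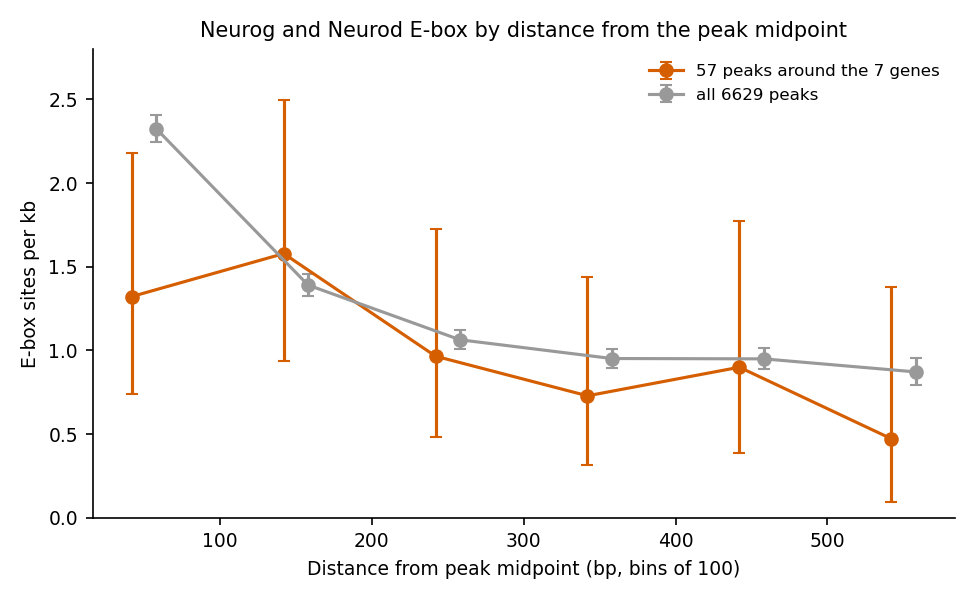
CAGATG or CATCTG sites per kb in bins of 100 bp by distance from the peak midpoint, for the 57 peaks and for all 6629 peaks, with exact Poisson 95% intervals as bars. Nearest the midpoint the 57 peaks have 1.32 sites per kb and all peaks 2.33, and from 100 to 200 bp the values are 1.58 and 1.39.

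All 10 classes of CANNTG were counted in the same way, taking each sequence with its reverse complement. In all deposited peaks CAGATG was the most concentrated at the centre relative to the rest of the peak, followed by CAGCTG with a ratio of 2.11 and CATATG with 1.86, while CACATG had a ratio of 1.01. CAGCTG was present in the middle of 4 of the 57 peaks (7.02%, exact interval 1.95 to 17.0%) and of 23.5% of all peaks. By width it was found in 1 of 29 and 3 of 28, against 15.1% of all peaks at least 1260 bp wide and 26.4% of narrower ones. CAAATG was present in 14 of the 57 (24.6%) and 19.0% of all, and CACGTG, the site of Myc-type bHLH factors, in 1 of the 57 and 3.14% of all.

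Genes that act with or against these factors were counted by the same 500 kb rule, and their counts are read beside the 12.7% of protein-coding genes with 6 or more peaks. Of the E proteins, their dimer partners, Tcf4 had 7 peaks, Tcf12 1 and Tcf3 0. Of the Id genes, whose products sequester E proteins, Id4 had 13, Id1 and Id2 5 each and Id3 2. Of 6 Hes and Hey genes, Notch-responsive repressors of proneural genes and their relatives, 1 reached the 90th percentile, Hes5 with 8, and the median was 2.5. Of 10 other neural bHLH genes 3 reached it, Olig1 and Olig2 with the same 11 peaks and Olig3 with 7, and the median was 2. The close paralog Neurog3, a gene of the endocrine pancreas, had 2, and Atoh1, of the hindbrain and inner ear, had 1. Of 5 targets of Neurog2 in the cortex, Dll1 had 9 peaks, Eomes and Tbr1 7 each, Rnd2 4 and Dll3 0.

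Genes that mark the tissue were counted in the same way, beside the same background of 12.7%. Apart from Neurod2 and Neurod6, 5 of 5 genes of the dorsal telencephalon (Emx1, Emx2, Pax6, Tbr1 and Eomes) had 6 or more peaks, with a median of 7. Of 6 genes of the ventral telencephalon 2 did, Dlx1 and Dlx2, which are neighbours and share the same 7 peaks, and the median was 3.5. Of 6 genes expressed outside the brain 0 did, with a median of 1.5. These lists were chosen with results of these data known, so their counts are a description and no independent check of the tissue. A number of peaks near a gene is not a measure of its expression.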

How the data were processed

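p300 ChIP-seq was measured in 1 library of E14.5 dorsal cerebral wall, with 1 input library. Reads were aligned by the authors to mm9 with ELAND, who kept unique alignments and called peaks with MACS (1.4 in the submitters' processing notes) using the input as control. Peaks on exons, close to start sites or of doubtful mapping had been taken out by them. The deposited file gives start and end positions only and holds no score, count or signal, so depth per peak is unknown here. Positions were read on NCBIM37, whose chromosome lengths are those of mm9, with GENCODE vM1. For each gene the transcript with the longest coding sequence gave the start site. Counts, ranks over all protein-coding genes, E-box searches and exact intervals were computed with Python 3.11.15, numpy 2.4.6 and scipy 1.17.1, and figures with matplotlib 3.10.9. On simulated data, 200 of 200 window counts matched a direct count and 200 of 200 planted E-boxes were found.

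The 7 genes, the gene lists and the measures were chosen with earlier results of these data known. Peaks were named when nearest to a start, widest, next to the 500 kb limit, under a cloned element or holding the E-box. Alternatives were other window sizes, joined peaks, wide peaks alone, other start sites and backgrounds, and other lengths searched for the E-box. No peak was compared between samples, so no test was made. Genes that are not reported here were taken out of the lists before counting. Protein sequences were not used here.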

Additional observations from a re-analysis of the deposited data

How the results depend on the processing

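Of 36 alternatives to the summary values, 32 stayed within 1.5 times the count or within the interval of the share, ratio or median, and 4 moved. These limits were loose, since a change from 4 genes to 6 counted as staying and the ratio had an interval of 0.764 to 2.58. A value that stayed could therefore still differ. Leaving out peaks narrower than the median left 35 of the 57. The share of peaks with the E-box rose from 26.3% to 57.9% over the middle 500 bp and to 77.2% over the whole peak, by construction, since more sequence was searched. Counting all annotated genes lowered the share of peaks nearest to their bHLH gene to 22.8%. The number of bHLH genes at or above the 90th percentile was 4. It was 6 with a limit of 250 kb in place of 500 kb, with wide peaks alone or with peaks joined, where 15.0%, 15.4% and 15.3% of protein-coding genes reached it. The count for single genes moved by more than 1.5 times in 10 of 35 alternatives. No paired analysis was possible because each group has 1 sample, and for the same reason no replicate could be left out. The alternatives with peaks at least 1260 bp wide and with peaks narrower than the median were added after the data were seen. Without a read count per peak, weaker p300 binding at Neurod4 or upstream of Neurod1 was not detectable from the list.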

Other observations

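The middle of peak 1659, in an intron of the histone gene H2afy 132.0 kb downstream of Neurog1, holds 10 sites of the CACCTG class (CACCTG or CAGGTG). Together the 57 peaks had 19 such sites in their middles, in 8 peaks, and the next highest, peak 1000 of Neurod2, had 3. The sites of peak 1659 are in capitals with any other CANNTG, and they recur in a repeated unit.
Neurog1, peak 1659 (chr13:56221435-56221634, plus strand): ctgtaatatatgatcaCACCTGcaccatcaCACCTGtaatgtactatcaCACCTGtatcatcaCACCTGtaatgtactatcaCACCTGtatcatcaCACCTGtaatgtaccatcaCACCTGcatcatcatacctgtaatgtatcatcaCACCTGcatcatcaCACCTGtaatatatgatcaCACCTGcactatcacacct

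The p300 peaks next to Neurod2 differed in base composition. The middle 200 bp of peak 1001, upstream of the gene, had a GC content of 79.5% and that of peak 995, downstream, 37.0%, while the median over the 57 peaks was 48.0% and over all deposited peaks 47.0%.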
